A study of Homo sapiens with 4 samples.

Results

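Intergenic regions carrying H3K27ac, the acetylation of histone H3 on lysine 27, were taken from 3 peak lists of K562 cells. Peaks sharing at least 1 bp were merged across the lists into 33834 regions. A region was kept when it lay outside every protein-coding gene body, more than 2.5 kb from each protein-coding or lncRNA start site and at most 100 kb from the nearest protein-coding start site. This left 5969 of the 33834 regions. The rule used position and no measured value.

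K562 is a human chronic myeloid leukaemia line with erythroid features that carries the BCR-ABL1 fusion. One library came from cells with the shRNA labelled TFAM-sh1 (hairpin 1), 1 from cells with TFAM-sh2 (hairpin 2) and 1 from cells with the control shRNA labelled shNT, all grown in IMDM with serum and pulled down with the same antibody. TFAM packages mitochondrial DNA and is needed to transcribe it. The labels do not say how long the hairpins were expressed, whether the cells were clones or how far TFAM was reduced, and a peak list measures no RNA or protein.

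Enhancers are stretches of open DNA that bind transcription factors and raise the activity of promoters at a distance. The acetyltransferases p300 and CBP place H3K27ac on the nucleosomes beside them, and the mark is widely used to find active enhancers and promoters. In erythroid cells GATA1 binds enhancers together with TAL1, LDB1 and LMO2, often at a GATA site next to an E-box part, and NF-E2 binds an extended AP-1 site.

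The sequences of 5 regions show the range of DNA found in the set. They are the reference sequence of hg19 on the plus strand, 200 bases around the midpoint of the first-ranked gained, lost and shared region, and 150 bases of the ranked gained region richest in G+C and of the ranked lost region poorest in it. "Gained" means a peak in both hairpin lists and none in the control list, and "lost" means a peak in the control list alone. Capitals mark a GATA site (AGATAA) in the RPS6KC1 stretch and a GC box (GGGCGG) in those of RPS6KA1 and RNF223. An AP-1 or NF-E2 core (TGANTCA) was searched too, all on either strand.
RPS6KC1 gained, chr1:213219172-213219371: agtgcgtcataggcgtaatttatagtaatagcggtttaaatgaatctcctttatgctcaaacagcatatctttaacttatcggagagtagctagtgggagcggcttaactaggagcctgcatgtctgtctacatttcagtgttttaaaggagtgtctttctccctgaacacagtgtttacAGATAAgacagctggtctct
LAPTM5 lost, chr1:31250967-31251166: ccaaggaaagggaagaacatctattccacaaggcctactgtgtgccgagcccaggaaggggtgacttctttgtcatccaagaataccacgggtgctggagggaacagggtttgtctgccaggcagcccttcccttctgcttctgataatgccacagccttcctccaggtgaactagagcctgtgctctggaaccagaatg
RPS6KA1 in all lists, chr1:26827608-26827807: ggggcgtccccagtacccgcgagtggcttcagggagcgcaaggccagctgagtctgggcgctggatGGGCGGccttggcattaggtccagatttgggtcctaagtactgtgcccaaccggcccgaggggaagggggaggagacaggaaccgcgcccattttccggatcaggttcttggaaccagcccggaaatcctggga
RNF223 gained, chr1:1015061-1015210: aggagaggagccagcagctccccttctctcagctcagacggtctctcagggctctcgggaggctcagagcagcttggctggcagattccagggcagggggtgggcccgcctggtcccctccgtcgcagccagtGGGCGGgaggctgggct
SMS lost, chrX:21944878-21945027: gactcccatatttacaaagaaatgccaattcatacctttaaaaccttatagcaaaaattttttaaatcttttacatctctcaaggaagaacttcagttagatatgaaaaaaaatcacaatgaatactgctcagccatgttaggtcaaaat

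The G+C content of these stretches was 41.0% at RPS6KC1, 54.0% at LAPTM5, 64.0% at RPS6KA1, 69.3% at RNF223 and 29.3% at SMS. The RPS6KA1 stretch held 12 CpG dinucleotides and the SMS stretch held 0.

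A further 4 stretches of 60 bases show composite sites of the erythroid factors in regions near genes of blood cells and chromatin, and were chosen after their values were seen. Capitals mark CTG, a gap of 8 or 9 bases and AGATAA (part of an E-box with a GATA site) at KIT and KAT5, and the extended NF-E2 site, TGC followed directly by TGANTCA, at CDK6 and ITGAM, on either strand. All 4 regions had a peak in every list.
KIT, chr4:55437565-55437624: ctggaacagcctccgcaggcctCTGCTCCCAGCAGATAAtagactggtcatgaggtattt
KAT5, chr11:65459854-65459913: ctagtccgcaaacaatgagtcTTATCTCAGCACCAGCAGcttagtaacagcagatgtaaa
CDK6, chr7:92533793-92533852: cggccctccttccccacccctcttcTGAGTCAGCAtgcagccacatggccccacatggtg
ITGAM, chr16:31265108-31265167: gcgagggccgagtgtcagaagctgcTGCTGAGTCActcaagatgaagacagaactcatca

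Each list came from 1 library, so replicate spread cannot be measured and no test was run. Every difference below compares libraries. Shares are followed by exact Clopper-Pearson 95% intervals over regions. These cover counting error only. They count each region as independent and hold no spread between libraries. Reads copied by PCR without molecular identifiers are also not independent molecules. The lists held 23819 peaks over 54.4 Mb for hairpin 1, 27007 over 61.9 Mb for hairpin 2 and 23413 over 52.1 Mb for the control. Read depth was not given in the sources used here. In cultured cells taken in bulk, fewer cells carrying the mark and less of it per cell cannot be told apart. Of 9 erythroid marker genes, 5 had a peak within 5 kb of the start site in hairpin 1, 4 in hairpin 2 and 5 in the control. GATA1, HBG1, HBG2 and HBE1 had none in any list. For 6 lymphoid markers the counts were 3, 2 and 1 in the same order, for 5 myeloid markers 3, 2 and 2, and for 5 megakaryocyte markers 3, 1 and 3. Peaks near the lymphoid markers covered 6301 bp in hairpin 1, 4454 bp in hairpin 2 and 1185 bp in the control, and those near the megakaryocyte markers 9041, 3613 and 15844 bp. In the same order, those near the erythroid markers covered 21762, 22473 and 27567 bp, and those near the myeloid markers 10004, 6338 and 5014 bp. PAX5, MS4A1 and CD3E of the lymphoid markers, MPO and CEBPA of the myeloid markers and FLI1 of the megakaryocyte markers had no peak in any list. The part of other cell types in the results was not tested. No peak in any list was wider than 9 kb. Whether wider domains were left out was not tested.

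The intergenic regions made up a small and low-scoring share of each list. Of the regions, 3662 had a peak in hairpin 1, 4322 in hairpin 2 and 3468 in the control. They held 15.5% of the hairpin 1 peaks, 16.2% of the hairpin 2 peaks and 15.0% of the control peaks, and 12.4%, 12.7% and 12.2% of the covered sequence. Scores were turned into percentiles within each list, so that 100 marks its highest peak. The median percentile of the intergenic regions was 33.2 in hairpin 1, 35.4 in hairpin 2 and 33.5 in the control. The median region covered 1460 bp in hairpin 1, 1466 bp in hairpin 2 and 1517 bp in the control.

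A peak in all 3 lists was found at 2125 of the 5969 regions, or 35.6% (34.4 to 36.8), against 49.9% of all merged regions. Distal regions inside introns had a lower share, 26.4%, and regions near a start site a higher one, 78.6%. Gained regions numbered 424, or 7.10% (6.46 to 7.78), against 5.91% of all merged regions. Lost regions numbered 534, or 8.95% (8.23 to 9.70), against 7.05%. The order of the gained and lost shares was not the same in every distal class. Distal regions inside introns had 7.94% gained and 11.4% lost regions, and regions outside genes and over 100 kb from a protein-coding start site (desert) 5.64% and 13.3%. Distal regions over exons had 8.43% gained and 5.94% lost regions.

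The remaining regions were split by hairpin. A peak was absent from hairpin 1 alone at 516 regions, or 8.64%, against 7.21% of all merged regions, and absent from hairpin 2 alone at 293, or 4.91%, against 4.29%. Hairpin 1 alone had a peak at 820 regions, or 13.7%, against 9.71%, and hairpin 2 alone at 1257, or 21.1%, against 16.0%. A gained region needs peaks in a pair of lists and a lost region a peak in 1 list, so their counts are not compared directly. Among regions found in 1 list, the control had the fewest, at 534. Among regions absent from 1 list, those absent from the control, at 424, lay between those absent from hairpin 1 and those absent from hairpin 2.

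**Figure D1:**
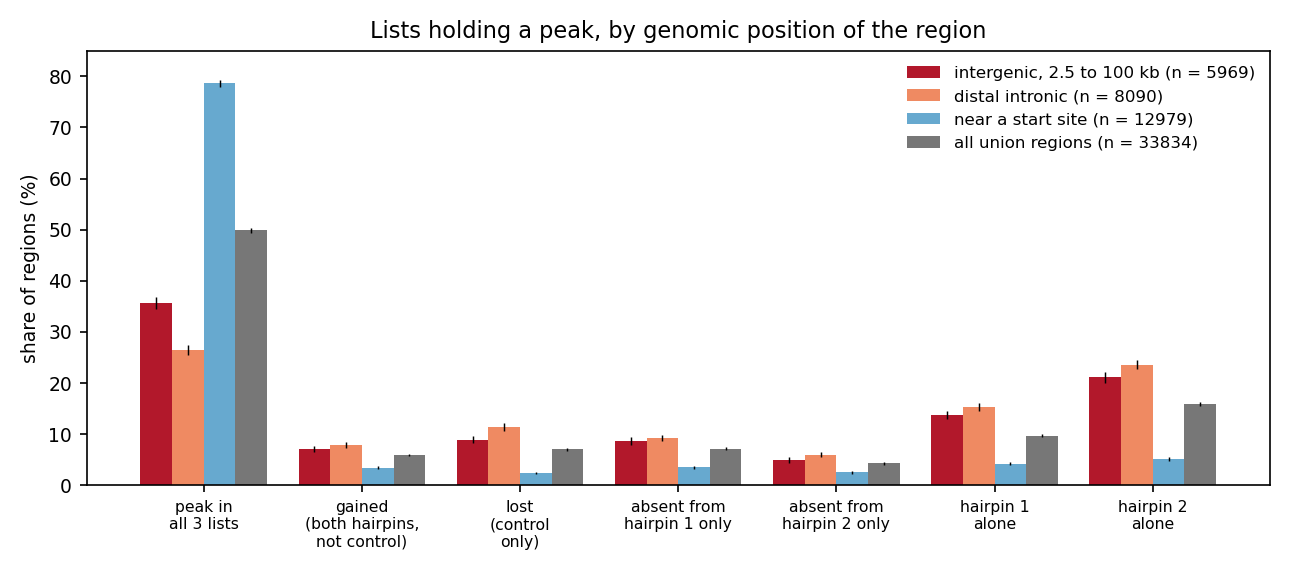
Share of regions (vertical axis, percent) in each of 7 classes defined by the lists that hold a peak, for intergenic regions, distal intronic regions, regions near a start site and all merged regions; bars carry exact 95% intervals for counting error. Intergenic regions were found in all lists in 35.6% of cases, against 78.6% for regions near a start site.

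Whether a region was found again moved with the rank of its peak. Of intergenic regions whose hairpin 1 peak lay in the lowest 25% of its list, 30.7% had a peak in both other lists, and of those in the highest 25% of the list 98.1%. The same shares were 20.9% and 95.7% for hairpin 2 peaks and 35.5% and 97.0% for control peaks. At matched rank, all merged regions gave like shares, for the control 34.3% in the lowest and 98.6% in the highest 25%. Gained regions had median percentiles of 21.3 in hairpin 1 and 26.1 in hairpin 2, and lost regions 14.9 in the control. Regions in all lists had medians of 46.2, 49.9 and 45.6.

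**Figure D2:**
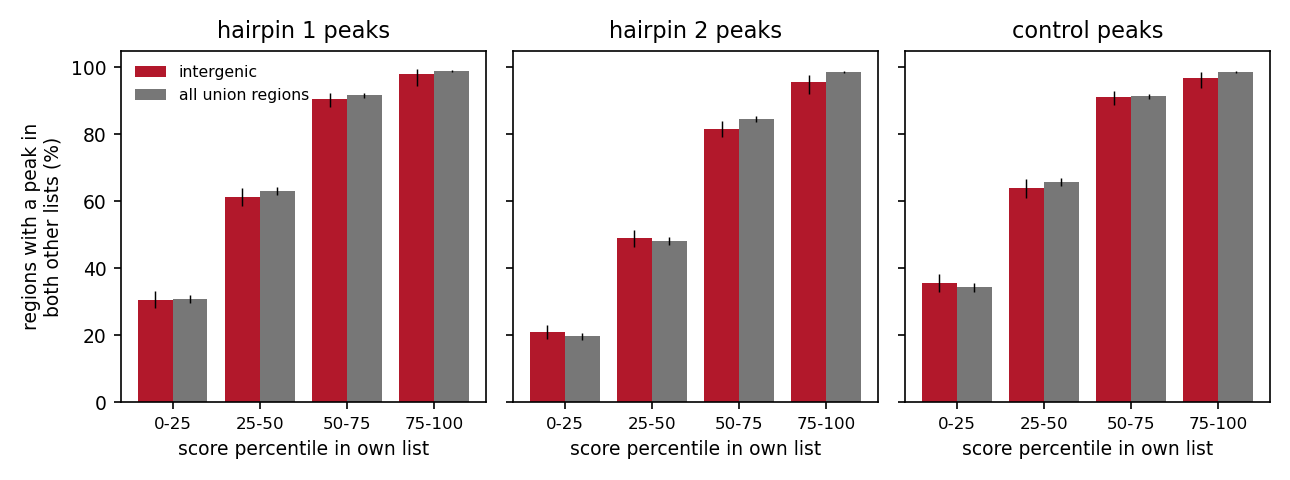
Share of regions with a peak in both other lists (vertical axis, percent) by the score percentile of the peak in its own list (horizontal axis), for hairpin 1, hairpin 2 and control peaks; bars carry exact 95% intervals for counting error. Control peaks at intergenic regions ran from 35.5% in the lowest 25% of the list to 97.0% in the highest, beside 34.3% and 98.6% over all merged regions.

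Among the 2125 regions in all lists, covered width differed little at the median. The median width was 1896 bp in hairpin 1, 1999 bp in hairpin 2 and 1855 bp in the control. The log2 ratio of covered base pairs to the control had a median of 0.05 (quartiles -0.29 and 0.43) in hairpin 1 and 0.10 (-0.21 and 0.47) in hairpin 2. These medians were 0.05 and 0.12 over all merged regions in all lists. Both hairpins were at least 1.5-fold wider than the control at 180 regions, or 8.47%, against 7.21% of all merged regions in all lists. Both were at least 1.5-fold narrower at 76, or 3.58%, against 2.20%.

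The ranked gained regions lay near genes of varied roles. The first lay 3.74 kb from RPS6KC1, a kinase-like protein of endosomes, and covered 3146 bp in hairpin 1, 2781 bp in hairpin 2 and 0 bp in the control. The nearest control peak was 21.6 kb away, and the promoter of RPS6KC1 was itself gained. The second lay 64.8 kb from MED4, a subunit of the Mediator complex, and covered 2108 bp in hairpin 1, 2367 bp in hairpin 2 and 0 bp in the control. Its nearest control peak was 60.4 kb away.

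The third covered 2261 bp in hairpin 1, 2989 bp in hairpin 2 and 0 bp in the control, 33.6 kb from SGMS1, which makes sphingomyelin. The others lay near RNF223, CA12 (a carbonic anhydrase), FGFRL1 (a receptor-like protein that binds fibroblast growth factors), TMPRSS5 (a membrane serine protease), PTGES (which makes prostaglandin E), ENSG00000254553 and AL137798.1. The TMPRSS5 region was the widest of the 10 in hairpin 1, with 4096 bp in hairpin 1, 3931 bp in hairpin 2 and 0 bp in the control. At FGFRL1 a control peak lay 0.712 kb away, so that region joined the shared class when peaks within 1 kb were merged. All 10 reached percentiles from 47.8 to 67.7 in hairpin 1.

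The 10 ranked lost regions reached percentiles from 51.7 to 81.4 in the control list. A region 18.6 kb from LAPTM5, a lysosomal membrane protein of blood cells, covered 0 bp in both hairpins and 3628 bp in the control, at percentile 81.4. The nearest peaks of hairpin 1 and hairpin 2 lay 29.0 and 27.1 kb away. A region 32.3 kb from RIMBP3C covered 0 bp in both hairpins and 5766 bp in the control, at percentile 79.6. A region 32.9 kb from CD82, a tetraspanin of the cell surface, covered 0 bp in both hairpins and 4552 bp in the control, but a hairpin 2 peak lay 0.885 kb away.

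Both TMEM26 regions stood far from any hairpin peak. The first covered 1432 bp in the control, with the nearest peaks of hairpin 1 and hairpin 2 at 185 and 190 kb. At SLC17A6, a vesicular glutamate transporter, the control peak of 2122 bp lay 306 kb from the nearest peak of either hairpin. The others lay near ATIC (purine synthesis), USP7 (a deubiquitinase), TBPL1 (a relative of the TATA-binding protein) and SMS (spermine synthase). Of the 10 ranked lost regions, 6 had a G+C content under 45%, down to 30.1% at SMS, and of the 10 ranked gained regions 3 did.

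The 10 highest-ranked shared regions had a G+C content of 54.9 to 72.0%, beside a median of 46.9% over all intergenic regions. The first lay 26.9 kb from RPS6KA1, a kinase of the MAP kinase pathway, and covered 3195 bp in hairpin 1, 3080 bp in hairpin 2 and 2678 bp in the control, at percentiles of 99.8, 99.4 and 99.5. The nearest coding gene of 3 others was FCGR2A, an antibody receptor, at 41.0, 48.2 and 56.1 kb. The FCGR2A promoter had a peak in hairpin 2 alone. The CpG ratio, observed over expected from base content, was 0.864, 0.853 and 0.859 at these 3 regions, beside a median of 0.238 over all intergenic regions. The others were near GNG13, HAAO, TEF, DEF8, ZMIZ1 and TTLL10.

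Base composition separated the lost from the gained regions. The 5969 regions were divided by G+C content into 5 groups of like size. In the poorest group, at 28.3 to 41.9% G+C, 4.19% (3.13 to 5.49) were gained and 20.6% (18.4 to 23.0) were lost. In the richest group, at 53.3 to 79.4%, 11.0% (9.26 to 12.9) were gained and 3.27% (2.33 to 4.44) were lost. In the groups in between, from poorer to richer, the gained share was 5.79%, 6.21% and 8.31% and the lost share 10.2%, 6.63% and 4.11%.

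The same order was present outside the intergenic set. Over all merged regions in the same groups, 3.72% were gained and 20.1% lost in the poorest group, against 7.32% and 2.49% in the richest. Distal intronic regions gave 4.28% gained and 21.7% lost in the poorest group, and 14.3% gained and 3.22% lost in the richest. The order is thus not particular to intergenic sequence.

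Widths followed base composition in both hairpins. Among shared regions of the poorest group the median log2 width ratio to the control was -0.35 in hairpin 1 and -0.15 in hairpin 2. In the richest group it was 0.26 in each hairpin. The lost share was higher in the poorer G+C class, divided at 46.9%, on 22 of 23 chromosomes, and the gained share was lower there on 20 of 23. The lost share in the poorest and richest groups was 40.0% and 5.88% among regions whose best percentile was up to 25, and 11.8% and 2.92% among those between 25 and 50. Above 50 it was 2.00% (0.737 to 4.30) and 0.510% (0.0618 to 1.83), with overlapping intervals. The gained share in the poorest and richest groups was 3.77% and 8.71% up to 25, and 6.73% and 19.6% between 25 and 50. Above 50 the gained share was 1.33% (0.364 to 3.38) and 6.12% (3.96 to 8.97), without overlap. The part of base composition in the gained and lost counts was not tested.

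**Figure D3:**
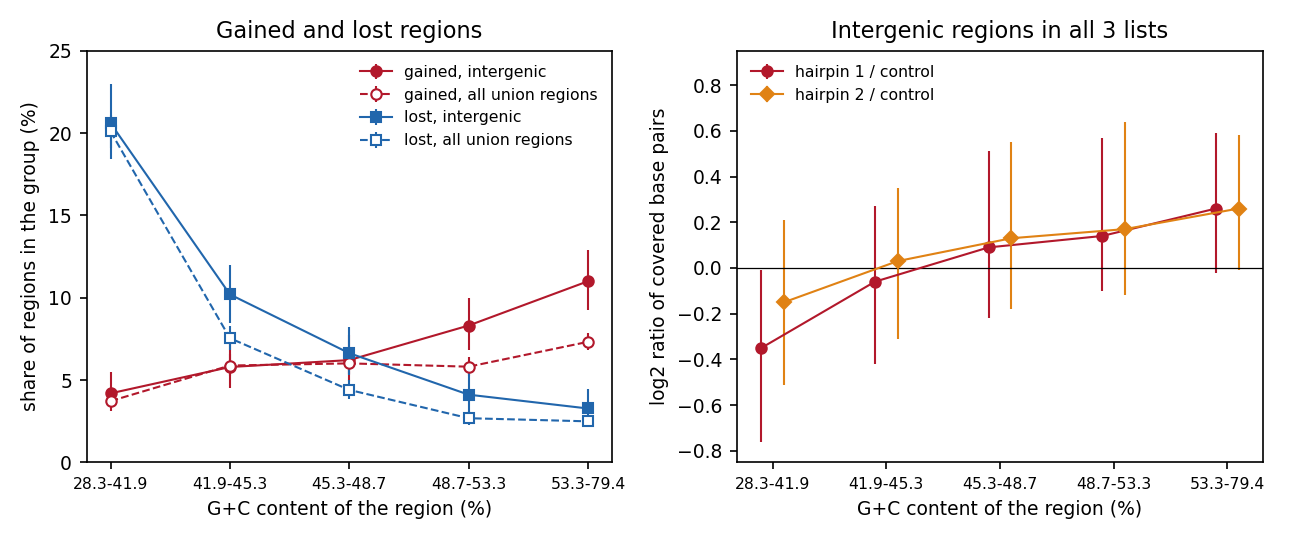
Left, share of regions gained (circles) or lost (squares) in 5 groups of G+C content (horizontal axis, percent), for intergenic regions (filled) and all merged regions (open), with exact 95% intervals for counting error. Right, median log2 ratio of covered base pairs of hairpin 1 and hairpin 2 to the control at intergenic regions in all lists, with quartiles as bars; both medians lie below 0 in the poorest group and at 0.26 in the richest.

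Distance from genes moved the shares less than G+C did. The median intergenic region lay 27652 bp from the nearest protein-coding start site, and 69.6% lay upstream of that gene. The rule leaves out gene bodies, which lie downstream of start sites, so it favours upstream regions by itself. Regions in all lists made up 37.5% at 2.5 to 10 kb, 37.1% at 10 to 25 kb, 36.0% at 25 to 50 kb and 32.6% at 50 to 100 kb. Over the same bins gained regions were 7.44%, 7.75%, 6.66% and 6.65%, and lost regions 7.94%, 8.66%, 9.55% and 9.27%, with overlapping intervals. The median log2 width ratio to the control was 0.13, 0.07, 0.08 and -0.05 in hairpin 1, and 0.14, 0.11, 0.09 and 0.07 in hairpin 2. The median G+C content was 47.9% in the nearest bin and 46.0% in the farthest.

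At the edges of the rule, 44.4% of the 180 regions up to 3.5 kb from a start site were in all lists, beside 26.9% of the 223 regions outside gene bodies at 1.5 to 2.5 kb. Of the 235 regions at 90 to 100 kb, 29.8% were in all lists, beside 36.5% of the 189 at 100 to 110 kb.

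The promoters nearest to the intergenic regions were mostly marked in every library, whatever the class of the region. A promoter here spans 1 kb to either side of a start site. It held a peak in all lists for 61.6% (56.7 to 66.2) of gained regions, 58.2% (53.9 to 62.5) of lost regions and 60.8% (58.6 to 62.8) of regions in all lists. The promoter was itself gained for 2.83% (1.47 to 4.89) of gained regions, beside 2.55% of all intergenic regions. It was itself lost for 1.87% (0.902 to 3.42) of lost regions, beside 1.09% of all intergenic regions. The nearest gene need not be the one an enhancer acts on.

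Erythroid sequence motifs were more common in the intergenic regions than near start sites. Words were searched on both strands in the central 1 kb of each region, beside the same letters written backwards, which keep the base content. AGATAA was present in 51.7% (50.4 to 53.0) of intergenic regions and its backward form AATAGA in 37.4%, against 26.7% and 20.7% of regions near a start site. Of all merged regions 44.0% held AGATAA. Since the backward form was also rarer near start sites, part of this order moved together with base content. In the poorest G+C group AGATAA was in 68.3% of intergenic regions and 62.5% of those near a start site. In the richest group these shares were 28.4% and 16.2%. The composite of CTG, 8 bases and AGATAA was present in 4.12% (3.63 to 4.66) of intergenic regions, its backward form in 0.268%, and the composite in 1.32% of regions near a start site. With a gap of 9 bases it was in 2.13%, its backward form in 0.586%. These composites contain AGATAA, so the counts overlap. They are the sites printed above for KIT and KAT5.

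TGANTCA was present in 39.4% (38.2 to 40.7) of intergenic regions and its backward form in 20.6%, against 18.4% and 13.0% near a start site. The extended NF-E2 site, which contains it, was in 5.75% (5.17 to 6.37) of intergenic regions, against 1.53% near a start site and 3.93% of all merged regions. Its backward form, in 0.0838%, holds a CpG that the site itself lacks. The order was the other way for promoter motifs. The ETS core CCGGAAG was in 7.46% of intergenic regions and 23.3% of those near a start site, and GGGCGG in 28.0% and 75.7%. Both hold a CpG, which the backward form of the ETS core lacks. Distal intronic regions gave 57.9% for AGATAA, 4.47% for the 8-base composite and 5.66% for the extended NF-E2 site, so these shares are not particular to intergenic regions. The other motifs searched were TGTGGT (RUNX) in 52.0% of intergenic regions and 45.7% of all merged regions, CACACCC (KLF) in 22.5% and 21.9%, and the CTCF core in 2.46% and 2.92%.

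**Figure D4:**
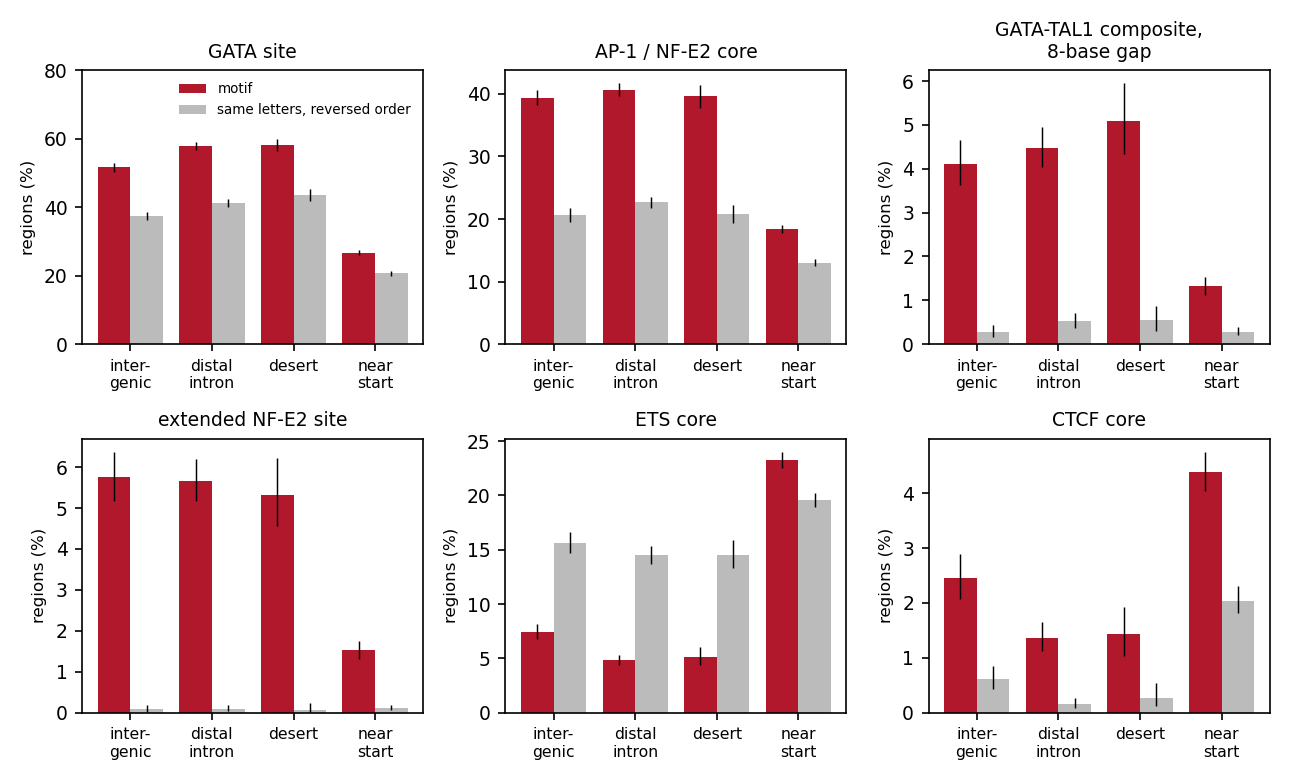
Share of regions (vertical axis, percent) holding each of 6 motifs (red; GATA, AP-1 or NF-E2 core, composite, extended NF-E2, ETS and CTCF) or the same letters in reversed order (grey) in the central 1 kb, by position of the region, with exact 95% intervals for counting error. The extended NF-E2 site was in 5.75% of intergenic regions and 1.53% of regions near a start site, and the ETS core in 7.46% and 23.3%.

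The intervals of gained and lost regions overlapped for AGATAA, the 8-base composite and the extended NF-E2 site. AGATAA was in 52.8% (48.0 to 57.7) of gained regions, 57.7% (53.4 to 61.9) of lost regions and 50.7% of regions in all lists. Its backward form was in 30.7%, 48.5% and 35.2%. The 8-base composite was in 3.77% (2.17 to 6.06) of gained, 3.37% (2.01 to 5.28) of lost and 4.14% of shared regions. In the group richest in G+C, AGATAA was in 35.9% (27.7 to 44.7) of gained, 35.9% (21.2 to 52.8) of lost and 25.2% (21.2 to 29.6) of shared regions. In the poorest group it was in 66.0% (51.2 to 78.8) of gained, 66.7% (60.4 to 72.5) of lost and 69.7% (64.8 to 74.3) of shared regions. In the groups in between, from poorer to richer, AGATAA was in 75.4%, 63.5% and 45.5% of gained regions. For lost regions these shares were lower, at 61.2%, 55.7% and 24.5%, with overlapping intervals. The extended NF-E2 site was in 5.42% (3.47 to 8.03) of gained, 7.30% (5.24 to 9.85) of lost and 6.82% of shared regions. The intervals did not overlap for a pair of motifs rich in G and C. CACACCC was in 25.7% (21.6 to 30.1) of gained and 15.5% (12.6 to 18.9) of lost regions, with its backward form in 25.5% and 14.2%. GGGCGG was in 31.6% (27.2 to 36.3) of gained and 18.2% (15.0 to 21.7) of lost regions, with its backward form in 38.7% and 23.4%. The backward forms, which hold the same letters, thus had the same order. TGANTCA was in 34.7% (30.1 to 39.4) of gained and 43.6% (39.4 to 48.0) of lost regions. In the central 2 kb its shares were 50.7% (45.8 to 55.6) and 63.3% (59.0 to 67.4), with no overlap. By G+C group, from poorest to richest, the central 1 kb held it in 32.0%, 37.7%, 37.8%, 37.4% and 30.5% of gained regions. For lost regions these shares were 46.7%, 48.8%, 39.2%, 36.7% and 25.6%. The intervals overlapped in each group, and the lost share was not higher in the richest groups.

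Regions nearest to 14 lists of genes were then described, with 198 genes in all. Over all intergenic regions 35.6% were in all lists, 7.10% were gained and 8.95% were lost, and of those in all lists 38.3% were wider and 25.5% narrower in both hairpins than in the control. Hairpin 1 was wider at 54.5% of them and hairpin 2 at 58.2%. Most lists held few regions, so that counts of 1 or 2 gained or lost regions lie near these shares. The erythroid transcription factors held 19 regions near 8 of 17 genes. Of these 11 were in all lists, 2 were gained and 0 were lost. Both hairpins were wider than the control at 8 of the 11, beside 38.3% of all intergenic regions in all lists. Their median log2 width ratio to the control was 0.59 in hairpin 1 and 0.32 in hairpin 2.

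TAL1, a partner of GATA1 on erythroid enhancers, stood out by the width of a distal region. Its region 16.7 kb downstream of the start site covered 4699 bp in hairpin 1, 5452 bp in hairpin 2 and 984 bp in the control, a log2 ratio of 2.26 and 2.47. By the smaller of these ratios it ranked first among the 2125 regions. Its control peak had a percentile of 3.49. The G+C content of this region was 51.9%. The median log2 width ratio in that G+C group was 0.14 in hairpin 1 and 0.17 in hairpin 2. A second TAL1 region, 8.08 kb upstream, covered 1831 bp in hairpin 1, 2259 bp in hairpin 2 and 1762 bp in the control. Nearer the gene the hairpins differed. Within 5 kb of the TAL1 start site, peaks covered 5523 bp in hairpin 1, 0 bp in hairpin 2 and 5929 bp in the control. Whether that blank is a wider domain left out of the hairpin 2 list was not tested.

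LMO2, which links TAL1 to GATA1, had a gained region 34.3 kb upstream, with 1446 bp in hairpin 1, 1344 bp in hairpin 2 and 0 bp in the control. Its region at 6.59 kb was wider in both hairpins, with 1727 bp in hairpin 1, 1455 bp in hairpin 2 and 677 bp in the control. At the remaining LMO2 region, 19.3 kb upstream, hairpin 1 covered 2558 bp, hairpin 2 1513 bp and the control 1705 bp, so that hairpin 2 was the narrowest. ZBTB7A, a repressor of fetal globin genes, had a gained region 22.0 kb upstream at percentiles of 4.79 and 1.38, near the foot of both lists. GATA2, a factor of blood progenitors, had 2 regions in all lists, the wider with 5138 bp in hairpin 1, 5749 bp in hairpin 2 and 4618 bp in the control. Percentiles at that wider region were 46.6 in hairpin 1, 53.4 in hairpin 2 and 68.9 in the control, an order opposite to width.

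MYB, a factor of progenitor growth, differed between the hairpins. Its region 31.5 kb upstream covered 5984 bp in hairpin 1, 3036 bp in hairpin 2 and 3393 bp in the control. Its region 48.4 kb downstream covered 4988 bp in hairpin 1, 1934 bp in hairpin 2 and 2269 bp in the control. Hairpin 1 was the widest library at both, and at the third MYB region, 97.8 kb downstream, hairpin 2 had no peak.

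Red cell membrane genes had 11 regions near 7 of 15 genes, with 7 in all lists, 0 gained and 1 lost. Both hairpins were narrower at 3 of the 7, beside 25.5% of all intergenic regions in all lists. These 3, near GYPB, GYPE and RHAG, had a G+C content of 36.1%, 36.4% and 34.1%. All lay in the poorest G+C group, where the median log2 width ratio was -0.35 in hairpin 1 and -0.15 in hairpin 2. The widest region lay near RHAG, an ammonium channel of the Rh complex, with 4342 bp in hairpin 1, 4423 bp in hairpin 2 and 5953 bp in the control. Its percentiles did not follow width, at 70.1 in hairpin 1, 63.0 in hairpin 2 and 61.7 in the control.

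Iron genes had 13 regions near 6 of 11 genes, with 4 in all lists, 0 gained and 2 lost, which is near the shares of all intergenic regions. Both lost regions lay downstream of SLC40A1, the iron exporter, with control peaks of 709 and 1061 bp. The transferrin receptor gene TFRC had 2 regions in all lists, the farther with 4992 bp in hairpin 1, 4935 bp in hairpin 2 and 4024 bp in the control. By rank that farther region stood highest in the control, with percentiles of 48.6 in hairpin 1, 62.9 in hairpin 2 and 76.1 in the control. Heme synthesis genes had 2 regions, both near the glycine carrier SLC25A38, of which 1 was lost. The 10 globin genes were nearest to 0 intergenic regions.

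Signalling genes downstream of the erythropoietin receptor and BCR-ABL1 had 16 regions near 6 of 14 genes, with 8 in all lists, 2 gained and 2 lost. Both hairpins were wider than the control at 4 of the 8 and narrower at 2, beside 38.3% and 25.5% of all intergenic regions in all lists. The 4 wider ones were the 4 regions of SOCS1, a feedback inhibitor of JAK kinases. The widest covered 6715 bp in hairpin 1, 6551 bp in hairpin 2 and 5571 bp in the control. The region at 30.1 kb covered 3006 bp in hairpin 1, 1512 bp in hairpin 2 and 1033 bp in the control. The 4 SOCS1 regions had a G+C content of 54.3%, 53.6%, 50.6% and 51.7%, in the richest group or the next. The median log2 width ratio was 0.26 in each hairpin in the richest group. In the next it was 0.14 in hairpin 1 and 0.17 in hairpin 2. The gained regions lay near SOCS3, another inhibitor of JAK kinases, and JAK2 itself. Their peaks ranked low, at percentiles of 15.9 in hairpin 1 and 24.2 in hairpin 2 for SOCS3. For JAK2, at 82.8 kb, the percentiles were 21.7 and 2.99, the latter near the foot of the hairpin 2 list.

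PIM1, a kinase induced by STAT5, had 5 regions and none in all lists. Together they covered 10060 bp in hairpin 1, 0 bp in hairpin 2 and 19547 bp in the control. The lost region 32.0 kb downstream covered 0 bp in both hairpins and 6478 bp in the control, with the nearest hairpin peaks 12.7 kb away. Peaks of 8 to 9 kb numbered 48 in hairpin 1, 73 in hairpin 2 and 25 in the control, with 0 wider ones in any list. Whether the blanks at PIM1 are wider domains left out of the hairpin lists was not tested. The same holds for GFI1B, an erythroid repressor, whose region covered 0 bp in hairpin 1, 7685 bp in hairpin 2 and 7286 bp in the control.

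The integrated stress response list had 10 regions near 4 of 15 genes, with 7 in all lists and none gained or lost. DDIT4, a stress-induced inhibitor of mTORC1, held 6 of them. Hairpin 2 was wider than the control at all 5 DDIT4 regions in all lists and hairpin 1 at 4 of the 5, beside 58.2% and 54.5% of all intergenic regions in all lists. The region 30.6 kb downstream covered 4099 bp in hairpin 1, 6884 bp in hairpin 2 and 2762 bp in the control. The 4 DDIT4 regions wider in both hairpins had a G+C content of 50.7 to 56.5%, and the remaining shared one 48.0%. Genes for mitochondrial carbon metabolism (acetyl-CoA supply and the tricarboxylic acid cycle) had 5 regions near 3 of 17 genes. Both regions of IDH2, the mitochondrial NADP-dependent isocitrate dehydrogenase, were in all lists, with 3836 and 1831 bp in hairpin 1, 3606 and 1720 bp in hairpin 2 and 2968 and 1446 bp in the control. They had a G+C content of 51.3% and 48.8%. In that G+C group the median log2 width ratio was 0.14 in hairpin 1 and 0.17 in hairpin 2.

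Mitochondrial DNA genes had 1 region, near MTERF1, in hairpin 2 and the control. Acetyltransferase and deacetylase genes had 5 regions near 4 of 24 genes, and both hairpins were narrower at 2 of the 4 in all lists, beside 25.5% of all intergenic regions in all lists. The region 48.1 kb downstream of HDAC2, a histone deacetylase, covered 1388 bp in hairpin 1, 1938 bp in hairpin 2 and 3267 bp in the control, at 36.0% G+C. MYC and cell cycle genes had 10 regions, with 5 in all lists and none gained or lost. The widest lay near CDKN2C, an inhibitor of CDK4 and CDK6, with 4328 bp in hairpin 1, 5773 bp in hairpin 2 and 6567 bp in the control. Rank went the other way there, with percentiles of 97.2 in hairpin 1, 85.9 in hairpin 2 and 56.5 in the control. Regions of the megakaryocyte, myeloid and lymphoid lists numbered 5, 6 and 3, with none gained or lost. At SPI1, the myeloid factor PU.1, the region 12.0 kb upstream covered 5807 bp in hairpin 1, 3921 bp in hairpin 2 and 3421 bp in the control.

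**Figure D5:**
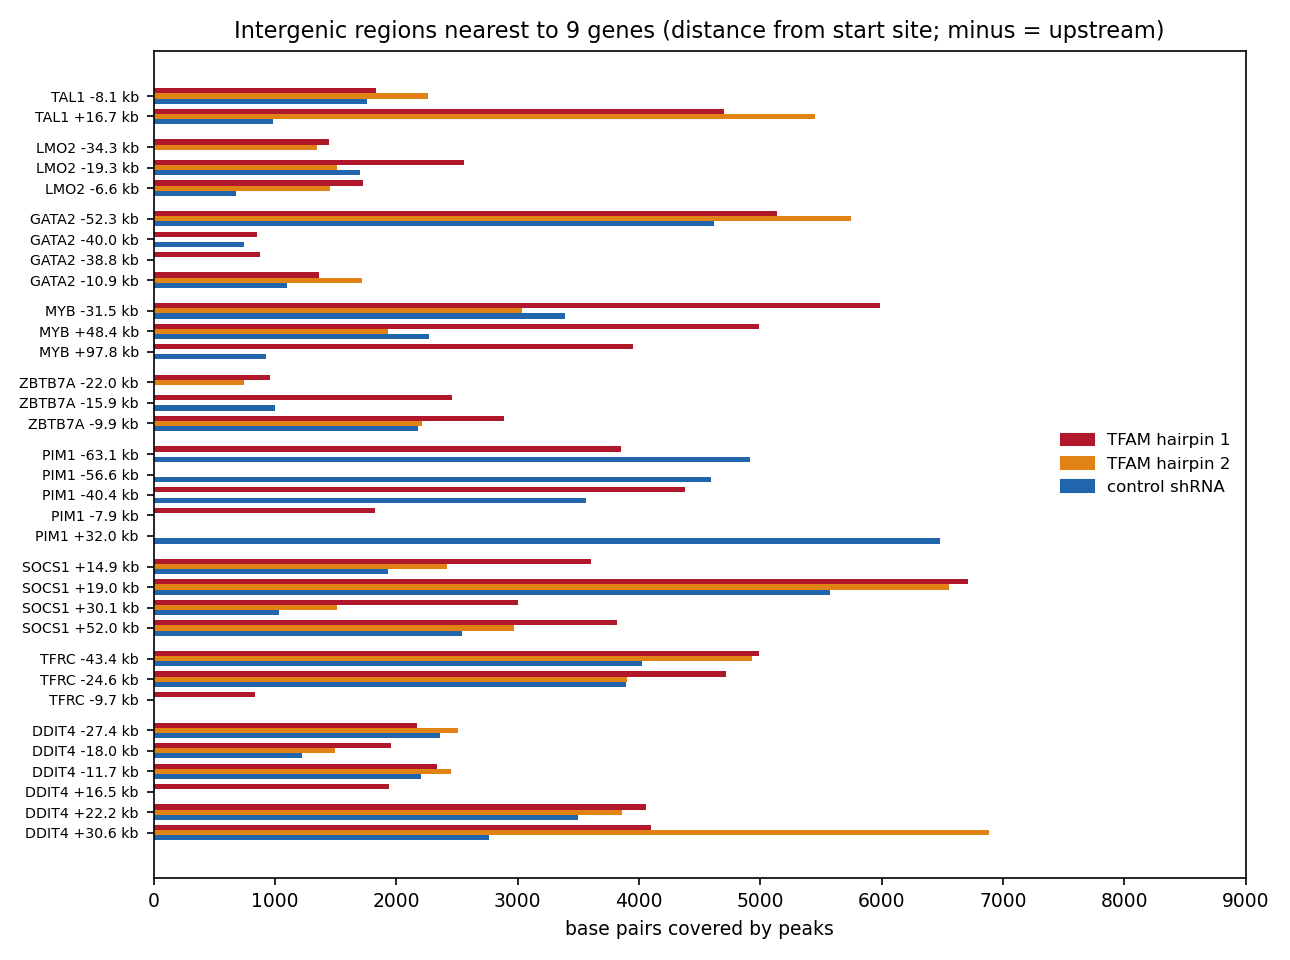
Base pairs covered by peaks (horizontal axis) in hairpin 1, hairpin 2 and the control at each intergenic region nearest to 9 genes of the lists; the 9 genes were chosen after their values were seen. Labels give the distance from the start site, with upstream regions negative. The TAL1 region at 16.7 kb covered 4699 and 5452 bp in the hairpins and 984 bp in the control, and hairpin 2 covered 0 bp at all 5 PIM1 regions.

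Many intergenic regions lay in clusters. Linked across the gap customary for stitching enhancers, 2227 regions, or 37.3%, formed 935 clusters of at least 2, and 71 clusters held at least 4. Of regions in all lists 40.7% were clustered, of gained regions 35.1% and of lost regions 34.8%. The 5969 regions had 3676 nearest genes, of which 106 had at least 5 regions. PTPN1, a tyrosine phosphatase, and YWHAZ, a 14-3-3 protein, had 11 each. The PTPN1 regions covered 14017 bp in hairpin 1, 14091 bp in hairpin 2 and 10359 bp in the control, with 4 in all lists, 0 gained and 2 lost. The YWHAZ regions covered 13823 bp in hairpin 1, 18854 bp in hairpin 2 and 16117 bp in the control.

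FAM72B had 10 regions and FAM72D had 9, in a duplicated part of chromosome 1 where reads that fit 1 place are few, which limits these values. CCDC71L had 9 regions, of which 2 were in all lists, 2 gained and 2 lost, and its promoter was gained. They covered 16545 bp in hairpin 1, 14369 bp in hairpin 2 and 12251 bp in the control. At CD93, a surface protein of endothelial and myeloid cells chosen after its values were seen, 6 regions covered 10249 bp in hairpin 1, 11524 bp in hairpin 2 and 3029 bp in the control, and the promoter was gained. At BBS12, chosen in the same way, 6 regions covered 9896 bp in hairpin 1, 6717 bp in hairpin 2 and 20890 bp in the control.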

How the data were processed

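H3K27ac peak lists of 3 K562 libraries were used, grouped by sample title. The authors' deposited lists give each peak's position, a MACS-prefixed name and a score, without pooling. The score is the authors' own, at least 50, on a scale not given in the sources used here, and served only as a rank inside its own list. Per the labels' protocols, reads that fitted 1 place in hg19 were kept. Per the submitters' processing notes, Bowtie 0.12.7 and Picard were used with hg19. Read depth, and so the precision of each list, is unknown. The input library was not analysed here.

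Annotation was GENCODE release 44 lifted to GRCh37, holding 20176 protein-coding and 18702 lncRNA records. All peaks lay inside the GRCh37 chromosomes. Start sites were those of canonical transcripts, or else the 5' ends of genes. Base content and motifs were read from GRCh37. Covered width is the base pairs of a region under peaks of 1 list. With 1 library per group no test was run.

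The rule for named regions took 10 gained regions, ranked by the smaller of both hairpin percentiles, 10 lost regions ranked by the control percentile, 10 shared regions ranked by the smallest percentile, and for each gene list the gained and lost regions with the 2 of most covered base pairs, with the 5 genes nearest to most regions; a few of the list regions are given by count alone, and some are not reported here. All other regions and genes in the text, the further regions near list genes included, were chosen after their values were seen. The members, lists and rule were chosen with earlier results of these data known. The code was tested on simulated data. Alternatives were equal list lengths, only the upper 50% of scores, 50% overlap, merging within 1 kb, autosomes, all transcript start sites, other distance limits, lncRNA bodies left out, absence within 1 kb, each hairpin alone and motif windows of 500 bp and 2 kb; regions with no peak of 5 kb or more were added after seeing the data. Work was done in Python 3.11.15 with SciPy 1.17.1, pandas 2.3.3, numpy 2.4.6, pysam 0.24.0 and matplotlib 3.10.9.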

Additional observations from a re-analysis of the deposited data

How the results depend on the processing

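The counts moved with the peaks kept and with the hairpins compared. With the higher-scoring 50% of each list, 1729 intergenic regions were left, with 573 in all lists, 136 gained and 181 lost, and the median log2 width ratio of hairpin 2 to the control was 0.05. In the full lists the log2 ratio of gained to lost regions was -0.33 (exact 95% interval for counting error -0.52 to -0.15). With lists cut to equal length it was -1.09, and the cut removes peaks of the hairpins alone. Gained and lost regions are defined unlike, so this ratio only follows the settings and its sign is no result by itself. Hairpin 1 alone against the control gave 1266 gained and 1081 lost regions, a log2 ratio of 0.23. Hairpin 2 alone gave 1697 gained and 840 lost, a log2 ratio of 1.01. The sign of that ratio therefore turned, since a gained region then needed a peak in 1 hairpin and not in both. Within 50 kb of start sites the median log2 width ratio of hairpin 1 was 0.09, and the cause was not tested. AGATAA was in 30.9% of the central 500 bp and in 73.7% of the central 2 kb. All other counts stayed within 1.5 times the reported ones. Of 794 checks of the class of 64 named regions, 770 left it as reported, 24 changed it, and 0 exchanged gained for lost. Many of these checks could not fail. Other start sites, distance limits, lncRNA bodies and autosomes do not alter which lists hold a peak. Removing or merging peaks cannot exchange gained for lost. With the higher-scoring 50% of each list, 12 regions changed class and 34 did not, and regions left without a peak were not counted. No paired analysis was possible because each group has 1 library. Depth, the input and replicate spread limit every comparison.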

Other observations

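Intergenic regions that overlap genes of small noncoding RNAs were found in all lists more often than the others, at 35 of 54 or 64.8% (50.6 to 77.3), beside 35.3% (34.1 to 36.6) of the other 5915. Their median percentile was 55.0 in hairpin 1, 59.0 in hairpin 2 and 58.4 in the control, beside 33.0, 35.2 and 33.4 for the others. Genes and variants of the U1 RNA, which recognises the start of introns during splicing, were overlapped by 13 regions. All 13 were in all lists, which allows a share down to 75.3%, and 12 lay on chromosome 1. The region over RNU1-3 covered 2721 bp in hairpin 1, 2782 bp in hairpin 2 and 2622 bp in the control, at percentiles of 94.3, 96.5 and 98.9. The U1 regions were chosen after their values were seen. Near-identical copies share few reads that fit 1 place.

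Regions with a CpG ratio of 0.6 or more numbered 394, of which 54.8% (49.8 to 59.8) were in all lists. Of the 2185 with a ratio under 0.2, 27.5% (25.6 to 29.4) were in all lists. Their median percentiles were 48.7 and 28.2 in hairpin 1, 49.8 and 29.3 in hairpin 2, and 47.9 and 28.7 in the control, so CpG content moved together with rank. By chromosome, the lost share ran from 3.51% (0.428 to 12.1) on chromosome 21 to 17.0% (10.5 to 25.2) on chromosome 18, and the gained share from 2.68% (0.556 to 7.63) on chromosome 18 to 10.3% (5.61 to 17.0) on chromosome 22. The median G+C content of the intergenic regions was 48.2% on chromosome 21, 44.7% on chromosome 18 and 53.0% on chromosome 22.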
